A study of Arabidopsis thaliana with 5 samples.

Results

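The comparison described here sets Arabidopsis seedlings held for 240 min in 0.2% oxygen against seedlings kept for 240 min in air. Its features are the probe sets that read 6 or more on the log2 scale on at least 1 of the 4 arrays other than the 240 min hypoxic one, with control probe sets left out. That level was set because the hypoxic array of 240 min carries many raised dim probe sets. It kept 2549 of 8247 probe sets (30.9%), of which 988 name 1 gene each and together cover 936 of the 3592 genes that the array names here. The remaining 1561 are not named here.

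The samples were whole seedlings of ecotype Col-0, with no other genotype or allele in the labels, grown on upright agar plates at 22 °C with 16 h of light a day until 14 days old. The hypoxic seedlings stood in plastic bags for 30, 60 or 240 min while a mix of 99.8% nitrogen and 0.2% oxygen was passed through. The air seedlings were taken at 0 and 240 min, and the labels give no oxygen level for them. Each of the 5 conditions has 1 array, so no difference below has a replicate error or a test, and treatment cannot be told apart from the sample or the array that carried it.

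Low oxygen stops mitochondrial respiration short of its electron acceptor, and plant cells then make ATP by glycolysis, which fermentation keeps running. The enzymes of that route and a set of partners, the low-oxygen core genes, are switched on by transcription factors of the ethylene response factor family that are stable only when oxygen is scarce. Protein synthesis, growth and other processes that cost ATP are held back at the same time, and cells can run short of sugar.

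The nearest yardstick for array-to-array spread is the pair of air arrays, 240 min minus 0 min, whose differences over the 2549 probe sets had an SD of 0.29 and a median of 0.00. In 240 min hypoxia minus 240 min air the SD was 0.67 and the median −0.04. A difference of 1 (2-fold) is the size counted throughout, and hypoxia and air with no time given are the 240 min arrays. Lower by that much in hypoxia were 158 probe sets (6.2%) and higher 104 (4.08%). In the air pair, 15 were higher (0.588%) and 9 lower (0.353%). By gene, 41 of 936 were lower (4.38%) and 38 higher (4.06%), and 42.0% of genes lay above 0. The counts in each gene list below are to be read beside these shares.

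The array labelled 240 min hypoxia stood apart from the other 4 in its dim probe sets. Among 4697 probe sets that read under 5.5 on all 4 other arrays, 303 were higher by 1 or more on it and 0 were lower. These clustered by probe-set number, the running number in each probe set's name. The differences of dim probe sets correlated at r = 0.84 between adjacent numbers (3038 pairs), −0.10 at 10 numbers apart (2926 pairs) and 0.73 at 33 apart (2816 pairs), across probe sets that share 1 pair of arrays.

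The probe sets at 6 or more were therefore sorted by their dim neighbours, those within 3 numbers on either side. Beside raised dim probe sets (a median difference of 0.5 or more on the lower or the higher side) lay 264, while 1948 had no raised dim neighbours and 337 had no dim neighbour to judge by. Higher by 1 or more were 48 of the 264 (18.2%), 49 of the 1948 (2.52%) and 7 of the 337 (2.08%). Lower by 1 or more were 7 (2.65%), 131 (6.72%) and 20 (5.93%). Of the 50 members furthest above air 36 lay beside raised dim probe sets, against 1 of the 50 furthest below. The part of this pattern in the higher genes was not tested, and a higher gene described below is said to lie beside raised dim probe sets where it does.

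**Figure D1:**
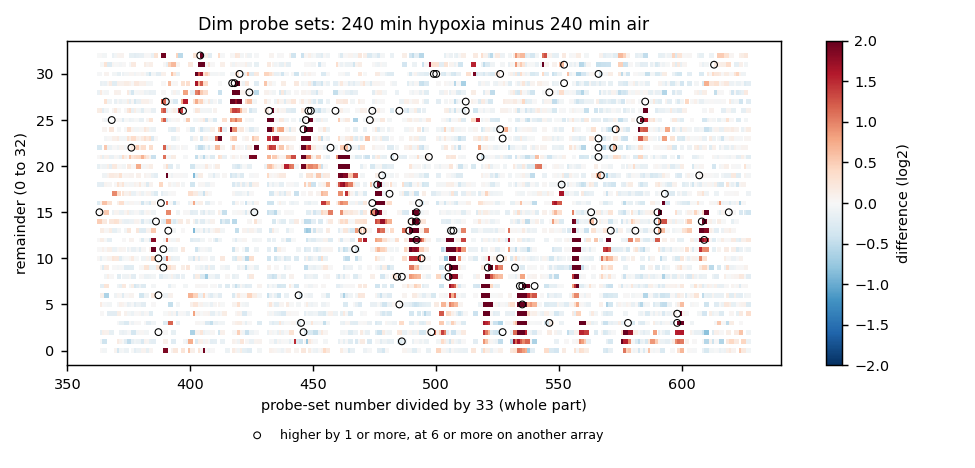
Difference between 240 min hypoxia and 240 min air (colour, log2) of the 4697 dim probe sets, placed by probe-set number: the whole part of number divided by 33 across, the remainder upwards. Open circles are the 104 probe sets at 6 or more on another array that were higher by 1 or more. The red cells gather in runs, and 48 of the circles lie beside them.

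Other signs of the state of the arrays moved with the same sample. The GAPDH control read 1.97 higher at its 3′ than at its 5′ probe set on the 240 min hypoxic array, against 0.55 on the 240 min air array and −0.23 to 0.69 over all other arrays. For ubiquitin the same measure was 2.39, against 1.89 in 240 min air and 1.67 to 2.15 over all others. The 25S and 5S rRNA controls were higher in hypoxia than in air by 1.41 and 0.99, and the part of these values in the differences was not tested. A listed gene counts as measured where a probe set names it, so a gene not measured can still lie among the unnamed probe sets. Of 10 green-shoot markers 5 were measured, and the 4 at 6 or more were near equal in hypoxia and air: LHCB4.1 at 14.13 and 13.99, RCA at 14.71 and 14.47, PSAN at 11.91 and 11.75, and LHB1B2 at 13.69 in both. The fifth, LHCB4.3, was dim, at 4.77 and 5.15. The root, seed and flower marker lists had 0 measured members, so the labelled whole seedling was checked for its green shoot alone.

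**Figure D2:**
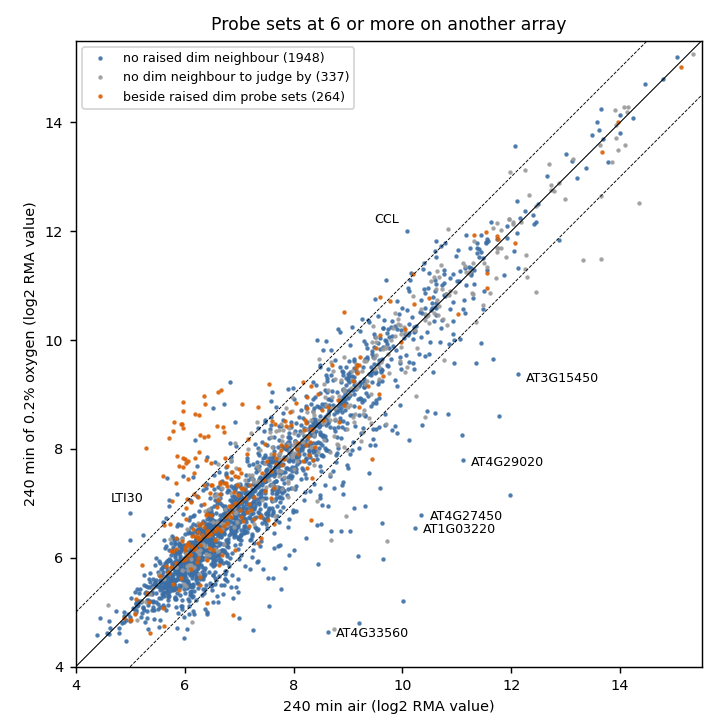
Log2 RMA value after 240 min of 0.2% oxygen (vertical) against 240 min in air (horizontal) for the 2549 probe sets at 6 or more on another array, coloured by their dim neighbours, with dashed lines at a difference of 1 either way. Below the lower line lie 158 probe sets, spread over the whole range of levels, and above the upper line 104, of which 48 are orange.

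The low-oxygen core genes, which low oxygen is known to switch on, ran against the name of the array: the 3 at the level of 6 read lower on the array labelled 240 min hypoxia than on either air array. An exchange of the 240 min labels was not tested, and it would turn the sign of every difference given here between the 240 min arrays. Differences of the 240 min hypoxic array from 0 min air or from the mean of both air arrays would take other values. All signs follow the labels as deposited. Of 49 listed core genes 5 had a named probe set and 3 reached the level of 6. All 3 were lower by 1 or more, with a median of −3.56 against −0.04 over all 936 genes. AT4G33560, a wound-responsive family protein gene, read 4.64 in 240 min hypoxia against 8.63 in 240 min air (−3.99). The other arrays read 5.87 and 8.48 after 30 and 60 min of hypoxia and 7.30 in air at 0 min, so the 240 min hypoxic value was the lowest of the 5. It lies under the 5.5 used for dim probe sets, so this difference has no measured fold, and the same holds for PDC2, AFR and STZ below. In whole seedlings, fewer cells of a type and less RNA per cell cannot be told apart.

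AT4G27450, which encodes a protein of the aluminium-induced family, read 6.79 in hypoxia against 10.35 in air (−3.56). Its 60 min hypoxic array was the highest of the 5 at 11.81, and the 240 min hypoxic array the lowest. PDC2, a pyruvate decarboxylase gene of ethanolic fermentation, read 5.46 in hypoxia against 6.94 in air (−1.48), and 7.85 at 60 min. All 3 genes also read higher in air at 240 than at 0 min, by 1.33, 1.36 and 1.16. Set against the 0 min air array in place of the 240 min one, the list's median was −2.20, and PDC2 was at −0.32, inside the count of 1. The 2 core genes under the level, AT2G17850 and AT4G17670, were at −0.44 and −0.07.

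Of the 4 genes of fermentation and glycolysis at the level, 1 was lower by 1 or more, which was PDC2. The median was −0.47 and 0 were above 0, where 4.38% of all genes were lower by 1 or more and 42.0% above 0. ALDH11A3, the non-phosphorylating glyceraldehyde-3-phosphate dehydrogenase, read 7.79 in hypoxia against 8.36 in air (−0.57). F2KP, which makes and breaks the glycolytic regulator fructose 2,6-bisphosphate, was at −0.36, and the pyruvate kinase gene AT2G36580 at −0.10. The last of these was above 0, at 0.35, against 0 min air. AT4G17260, a lactate dehydrogenase gene under the level, was at −0.59.

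Of the 2 measured markers of sugar shortage, 1 was lower by 1 or more. AT3G15450, a starvation-induced relative of AT4G27450, read 9.38 in 240 min hypoxia and 12.12 in air (−2.73). It had read 11.70 and 13.43 after 30 and 60 min of hypoxia, so the hypoxic arrays hold both its highest and its lowest value. MCCA, of leucine breakdown, the other measured starvation marker, was at 5.33 in hypoxia against 5.58 in air (−0.25), inside the SD of the air pair. Of the 15 genes furthest below air, 2 belong to the DUF506 family of unknown function. AT4G32480 read 6.30 in hypoxia against 9.71 in air (−3.41), and AT2G20670 6.92 in hypoxia against 9.11 in air (−2.19).

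The 4 measured ATG8 genes, whose products tag the autophagosome membrane, were all below air by less than 1, with a median of −0.28, where 523 of all 936 genes were below it. ATG8C was at −0.50, APG8A at −0.34, ATG8E at −0.22 and ATG8F at −0.18. None of the 4 lay beside raised dim probe sets.

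**Figure D3:**
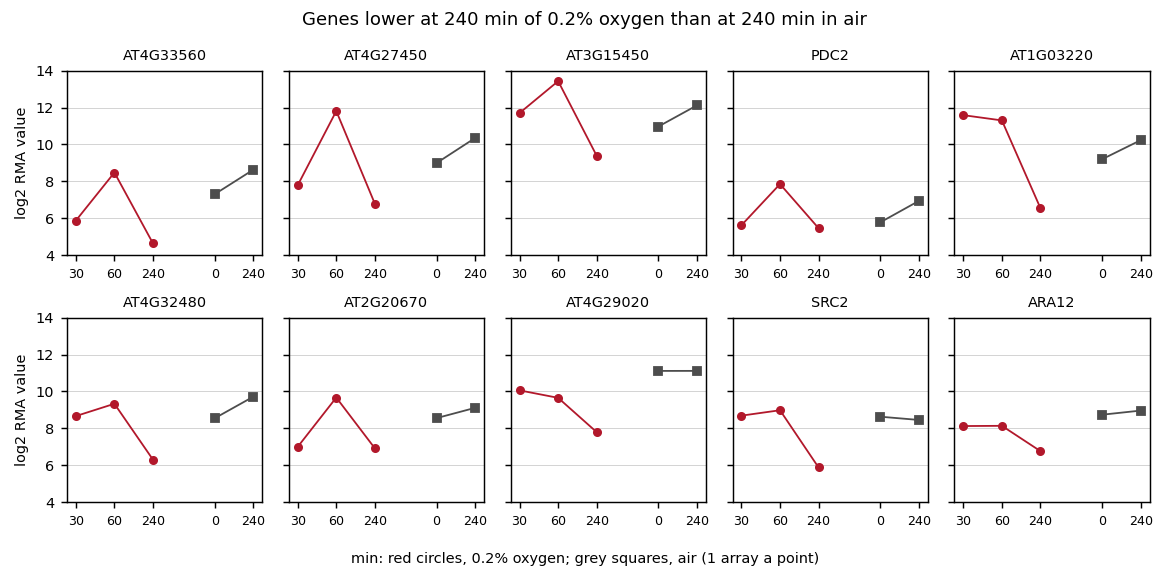
Log2 RMA values of 10 lower genes on each of the 5 arrays (1 array a point): hypoxia at 30, 60 and 240 min as red circles, air at 0 and 240 min as grey squares. The 240 min hypoxic array is the lowest of the 5 in all 10 panels, and in those of AT4G27450, AT3G15450, PDC2, AT2G20670 and SRC2 the 60 min hypoxic array is the highest.

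AT1G03220, an aspartyl protease family gene, read 6.55 in hypoxia against 10.23 in air (−3.68, or 12.8-fold lower). It stood at 11.59 and 11.30 after 30 and 60 min of hypoxia and at 9.20 in 0 min air. The adjacent family member AT1G03230 differed by −0.19. ARA12, a subtilisin-like protease of the cell wall, was at 6.76 in hypoxia against 8.96 in air (−2.20), and another subtilase gene, AT2G05920, at 7.88 in hypoxia against 8.50 in air (−0.62). Of 12 protease genes 9 lay below 0 and 2 were lower by 1 or more, with a median of −0.13. AT4G16190, one of the 12, was counted at −0.24 but was at −2.35 at its other probe set. Over all 936 genes 523 lay below 0 and 4.38% were lower by 1 or more.

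Among 12 genes of cell wall remodelling, 3 were lower and 1 higher by 1 or more, where 4.38% and 4.06% of all genes were, and the median was −0.10. EXGT-A3, which cuts and rejoins xyloglucan chains, was at 8.14 in hypoxia against 9.23 in air (−1.10), and AT1G23205, of the pectin methylesterase inhibitor family, at 6.30 in hypoxia against 7.41 in air (−1.11). AT4G24780, a pectate lyase gene, was at 6.04 in hypoxia against 9.18 in air (−3.14) at its probe set with the higher mean and at 6.41 in hypoxia against 7.03 in air (−0.62) at its other. The member on the higher side, the expansin gene EXPA15, lay beside raised dim probe sets, at 7.18 in hypoxia against 6.18 in air. AT4G29020, which encodes a glycine-rich protein, was outside these lists and read 7.79 in hypoxia against 11.11 in air (−3.32). Its 2 air arrays were both at 11.11, and all 3 hypoxic arrays lay below them.

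Of 6 WRKY and STZ genes, transcription factors of stress responses, 5 lay below 0 and 1 was lower by 1 or more, with a median of −0.36. Of all 936 genes 523 lay below 0, and 4.38% were lower by 1 or more. STZ, a zinc finger repressor, read 5.40 in hypoxia against 6.50 in air (−1.10), its lowest value over the 5 arrays. WRKY6 was at −0.63, WRKY22 at −0.46 and WRKY29 above air at 0.23, all near the floor on the hypoxic array, at 4.83 to 5.58. AFR, an F-box protein gene of phytochrome A signalling, read 5.25 in hypoxia against 6.88 in air (−1.63). SRC2, whose product has a C2 domain, read 5.88 in hypoxia against 8.46 in air (−2.58), with 8.63 in 0 min air and 8.69 and 8.98 at 30 and 60 min.

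Among the rest of the 15, AT1G03610 of the DUF789 family was at −1.88 and AT1G54740 of the FANTASTIC FOUR-like family at −1.65. The lectin-domain gene AT1G78820 was at −1.56, with −1.36 at its other probe set. Of the 15, 13 had no raised dim neighbours and 2, AT4G32480 and ARA12, could not be judged. The probe sets of any level within 3 numbers of the 15 had median differences of −0.37 to 0.23. Of all 41 lower genes, 35 had the lowest of their 5 values on the 240 min hypoxic array, and 33 were also lower by 1 or more against 0 min air. The 41 were picked by a low value on that same array, so neither count is independent of the choice.

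Genes of the chloroplast were split. Of 14 thylakoid photosynthesis genes 7 lay above and 7 below 0, with a median of −0.01 and 0 past 1 in either direction. The same list had 14 of 14 members below 0 min air after 30 min of hypoxia, with a median of −1.08. The 7 genes of the Calvin cycle and photorespiration had a median of −0.17 at 240 min and −1.46 at 30 min. Without probe sets that carry a letter before their suffix the 240 min median was −0.57. SBPASE, a phosphatase of the regeneration phase, read 8.13 in hypoxia against 9.09 in air (−0.96). PRK, which makes the carbon dioxide acceptor, was at −0.57 and HPR, a photorespiratory reductase, at −0.84, while RCA, encoding Rubisco activase, was at 0.24.

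Lipid-droplet and pigment genes of the plastid stood further apart. All 3 fibrillin genes, which coat plastoglobules, were below air, with a median of −0.71, where 523 of all 936 genes were below it. FIB was at 7.59 in hypoxia against 8.73 in air (−1.14). LYC, the lycopene β-cyclase of carotenoid synthesis, was at 8.30 in hypoxia against 9.89 in air (−1.59), and at −1.88 at its other probe set. Over the 4 tetrapyrrole and carotenoid synthesis genes at the level, LYC included, 2 lay above and 1 below 0, with a median of 0.21 and 0 higher by 1 or more. The other measured gene of the list, PORB, stayed under the level on the other arrays and was at 2.11. HEME2, a uroporphyrinogen decarboxylase gene, read 8.02 in hypoxia against 7.34 in air (0.68). AT1G74470, whose enzyme makes the phytyl tail, was at 11.03 in hypoxia against 10.61 in air (0.42). GSA1, of the first steps of the pathway, read 7.48 in both. From the thylakoid list, LIL3:1, a light-harvesting-like protein needed for chlorophyll synthesis, was at 8.43 in hypoxia against 7.58 in air (0.85), the highest of its 5 arrays. None of the probe sets named here lay beside raised dim ones.

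On the higher side, 13 of the 15 genes furthest above air lay beside raised dim probe sets. They were AT4G25930, AT2G45120, AT3G48230, AT1G80640, AT1G04150, AT4G22660, AT2G07140, AT1G03520, AT1G47610, AT2G01480, PR-1-LIKE, AT4G15890 and AT2G02765. These 13 read 5.28 to 6.92 on the other 4 arrays and 7.68 to 9.09 on the hypoxic one, with differences of 1.72 to 2.88. The other 2 of the 15, CCL and LTI30, had no raised dim neighbours.

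CCL, whose unstable transcript cycles with the clock, read 12.00 in hypoxia against 10.09 in air (1.92, or 3.78-fold higher). It had read 8.32 and 11.48 at 30 and 60 min of hypoxia and 9.87 in 0 min air, so the order over the hypoxic arrays ran from below both air values to above them. GI, the other clock gene measured, was at 8.43 in hypoxia against 8.60 in air (−0.17) and at 0.28 at its other probe set. LTI30, a dehydrin induced by cold and drought, read 6.82 in hypoxia against 4.99 in air (1.82), with 5.12 in 0 min air and 5.64 and 6.43 at 30 and 60 min. All 3 hypoxic arrays of LTI30 lay above both air arrays. Its air values lie under 5.5, so its difference has no measured fold, and it reached the level of 6 through its 60 min hypoxic value alone.

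The list of dehydrins, LEA and cold-regulated genes, proteins that protect cells that lose water, had a median of 0.44 over 10 genes, and of 0.28 without KIN2, which lay beside raised dim probe sets. Of the 10, KIN2 included, 6 lay above 0, and 3 were higher and 1 lower by 1 or more. Over all 936 genes 42.0% lay above 0, and 4.06% were higher and 4.38% lower by 1 or more. AT1G54410, a small dehydrin, read 11.82 in hypoxia against 10.62 in air (1.20), and COR47, another dehydrin, 10.72 in hypoxia against 9.89 in air (0.83). COR47 differed by −0.37 at its other probe set. KIN2, a cold-responsive gene, was at 10.80 in hypoxia against 9.59 in air (1.20). The lower member was SRC2, given above. Over the probe sets with no letter before their suffix, a setting chosen after the values were seen, the median was 0.02.

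**Figure D4:**
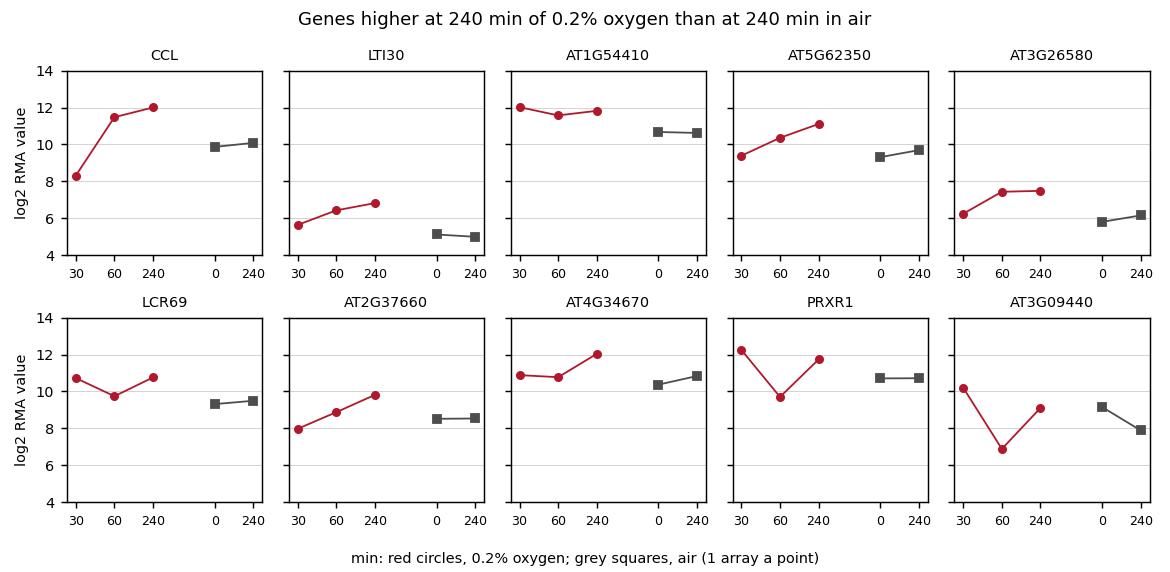
Log2 RMA values of 10 higher genes on each of the 5 arrays (1 array a point): hypoxia at 30, 60 and 240 min as red circles, air at 0 and 240 min as grey squares. In the panels of LTI30, AT1G54410, AT3G26580 and LCR69 every hypoxic array lies above both air arrays, while PRXR1 and AT3G09440 dip at 60 min.

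Of all 38 higher genes, 21 lay beside raised dim probe sets, 16 had no raised dim neighbours and 1 could not be judged. Of the 16, 11 had the highest of their 5 values on the 240 min hypoxic array, and 13 were also higher by 1 or more against 0 min air. These genes were picked by a high value on that same array, so neither count is independent of the choice. Some of the 16 are described below after their values were seen. AT5G62350, of the invertase and pectin methylesterase inhibitor family, read 11.11 in hypoxia against 9.69 in air (1.42), the highest of its 5 arrays. AT2G37660, a gene of a dehydrogenase-like family, read 9.81 in hypoxia against 8.53 in air (1.28), with 8.52 in 0 min air. AT3G26580, a tetratricopeptide-repeat protein gene, read 7.49 in hypoxia against 6.15 in air (1.33), close to its 7.44 at 60 min. STOMAGEN, whose peptide promotes stomata, read 6.33 in hypoxia against 4.99 in air (1.34) but 6.82 in 0 min air, so its sign turned on which air array was used. Its value in 240 min air also lies under 5.5, so that difference has no measured fold.

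Ribosomal protein genes lay slightly above air as a list. Of 46 cytosolic ribosomal protein genes at the level, 38 lay above and 6 below 0, with a median of 0.22, against 42.0% of all genes above 0 and a median of −0.04. The median without the genes beside raised dim probe sets was 0.21. At 60 min of hypoxia 33 of the 46 had been below 0 min air, with a median of −0.16. Past 1 were 2 higher members and 1 lower. AT4G34670, encoding RPS3a, read 12.03 in hypoxia against 10.84 in air (1.20), with 1.19 at its other probe set, and had no dim neighbours to judge by. AT1G70600, encoding RPL27a, was at 11.22 in hypoxia against 10.20 in air (1.02) and lay beside raised dim probe sets. The lower member, the RPS26 gene AT2G40590, was at 6.56 in hypoxia against 7.89 in air (−1.33). Some of these genes have close copies that a probe set may also bind, and the list was extended after values had been seen.

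Mitochondrial genes of respiration were close to air. Of 19 genes 11 lay above and 7 below 0, with a median of 0.06 and 1 past 1. That gene was AT2G20360, a subunit of complex I, at 8.11 in hypoxia against 6.83 in air (1.28), where the other 3 arrays read 6.03 to 6.84. The cytochrome c gene CYTC-1 was at 0.31, and AT4G37830, a cytochrome c oxidase subunit gene, at 0.56.

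Class III peroxidases, secreted enzymes of the cell wall, had a median of 0.01 over 24 genes, with 12 above and 11 below 0. Some members entered through the 30 min array alone and were dim at 240 min, AT5G19890, AT3G01190 and AT1G49570 among them. AT5G19890 read 8.31 at 30 min but 4.61 in hypoxia against 4.57 in air. Such members had little room to be lower, so the median depends on the level. PRXR1 read 11.73 in hypoxia against 10.72 in air (1.02). It had been at 12.25 and 9.70 after 30 and 60 min of hypoxia, so its hypoxic arrays lay on both sides of air. AT2G38390 was at 8.95 in hypoxia against 7.96 in air (0.99) with no dim neighbours to judge by, and AT4G37520 was lower, at 7.21 in hypoxia against 8.21 in air.

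Genes of secreted defence proteins were mixed, with 8 of 15 above and 7 below 0 and a median of 0.01. Here too some members entered through the 30 min array alone and were dim at 240 min. AT4G33720 read 10.10 at 30 min but 4.63 in hypoxia against 4.79 in air. LCR69, a defensin gene, read 10.76 in hypoxia against 9.49 in air (1.26), and all 3 of its hypoxic arrays lay above both air arrays. THI2.2, a thionin gene, read 6.72 in hypoxia against 7.91 in air (−1.19). The chitinase family genes AT2G43590 and AT2G43610 were at 0.94 and 0.92. PR-1-LIKE, at 8.24 in hypoxia against 6.43 in air (1.80), lay beside raised dim probe sets.

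Of 3 heat shock protein genes at the level, AT3G09440, a cytosolic HSP70, was the only member past 1. It read 9.11 in hypoxia against 7.89 in air (1.22), and 0.89 above air at its other probe set, which lay beside raised dim probe sets. Its 0 min air array read 9.15, so the difference from that array was −0.05, and its 60 min hypoxic array was the lowest of the 5 at 6.88. The small heat shock protein genes AT1G59860 and AT2G19310 were at −0.07 and −0.29.

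All 4 genes of the nitrate transporter family lay below air, with a median of −0.55 and 0 lower by 1 or more. Of all 936 genes 523 lay below air, and 4.38% were lower by 1 or more. AT2G26690 was at 6.79 in hypoxia against 7.40 in air (−0.61), AT3G21670 at −0.56 and AT2G40460 at −0.54. AT1G59740 was at −0.12. Against 0 min air AT2G40460 was at −0.13.

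**Figure D5:**
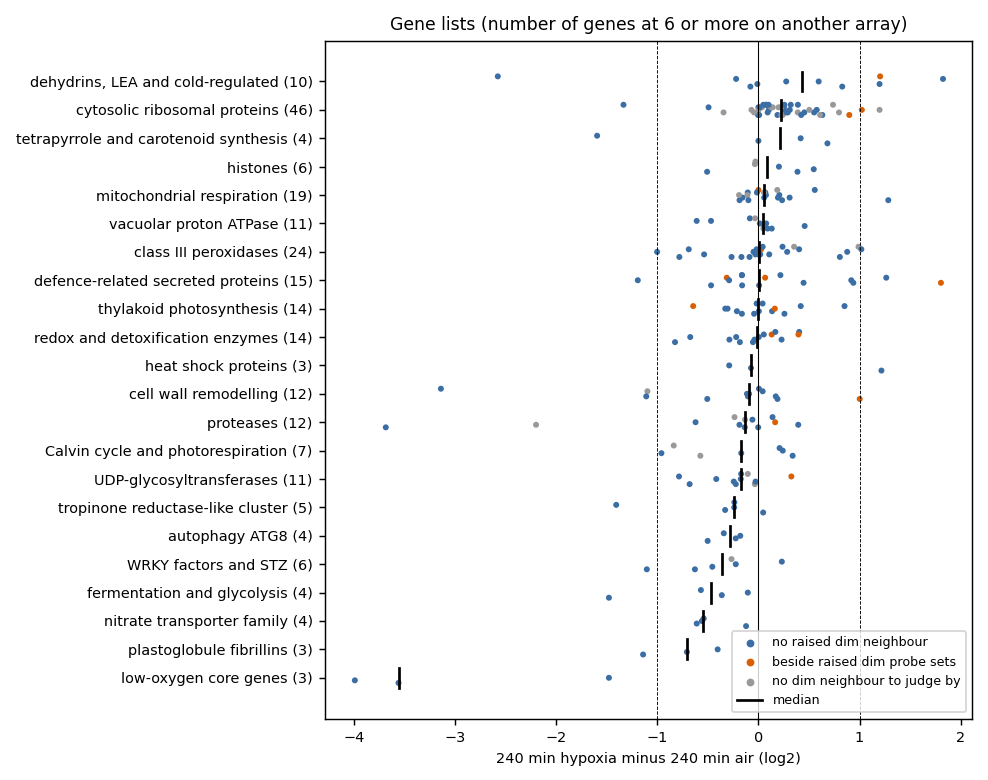
Difference between 240 min hypoxia and 240 min air (log2) of each gene in the 22 lists with 3 or more genes at the level of 6, with the median of each list as a black bar and the number of genes in brackets. The low-oxygen core genes lie furthest to the left with a median of −3.56, and the dehydrin list, with a median of 0.44, has members on both sides.

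The lower side of the 240 min comparison was then set beside the earlier hypoxic arrays, whose comparisons with 0 min air share no array with it. Of the 158 probe sets lower at 240 min, 35 (22.2%) had been higher by 1 or more at 60 min and 7 (4.43%) lower. Over all 2549 probe sets 4.08% were higher and 3.84% lower at 60 min. The 35 are 33.7% of the 104 higher at 60 min. Some of the 104, such as MCCA and WRKY53, reached the level of 6 through the 60 min array alone and read 5.58 and 5.12 in 240 min air. Such probe sets had little room to be lower at 240 min, so this share and the 4.08% depend on the level. At 30 min, 52 of the 158 (32.9%) had been lower and 14 (8.86%) higher, where 9.38% and 8.91% of all probe sets were. The 52 are 21.8% of the 239 lower at 30 min. The median differences of the 158 were 0.34 at 60 min and −0.45 at 30 min. Of the 41 lower genes, 9 were higher by 1 or more at 60 min, AT3G15450, PDC2 and AT1G03220 among them, and 1, AT4G29020, was lower.

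The higher side was set beside 60 and 30 min in the same way. Of the 104 probe sets higher at 240 min, 11 (10.6%) had been higher at 60 min and 5 (4.81%) lower. Over all 2549 probe sets 4.08% were higher and 3.84% lower at 60 min. Of the 49 with no raised dim neighbours, 10 had been higher and 5 lower at 60 min. The shares at 60 min over all 1948 such probe sets were not taken. The 5 named genes higher at both 60 and 240 min were CCL, LTI30, AT3G26580, AT5G62350 and AT1G13930. LTI30 reached the level of 6 through its 60 min value alone, so its being high at 60 min was fixed by the level. At 30 min, 11 of the 104 (10.6%) had been higher and 8 lower, where 8.91% and 9.38% of all probe sets were. No test of these overlaps was made, and the 60 and 30 min arrays have no time-matched air.

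Probe sets of the same gene were compared where a gene had more than 1 at the level. Of 48 such genes, 31 had all differences within 0.5, and the median range was 0.35. In 10 of them a probe set was past 1, and in 9 of the 10 all probe sets had the same sign, but 4 had all of them past 1. A disagreement chosen after its values were seen was that of SAMDC, a gene of polyamine synthesis. It read 4.69 in hypoxia, again under 5.5, against 8.75 in air (−4.06) and, at its other probe set, 10.57 in hypoxia against 11.47 in air (−0.90). AT4G16190, a papain-like protease gene, was at −2.35 and −0.24. Single values of genes with 1 probe set carry an uncertainty of this kind that these data do not measure.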

How the data were processed

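The deposited table holds log2 values of 8297 probe sets on 5 single-colour Affymetrix arrays hybridised with biotin-labelled cRNA. Per the submitters' processing notes the tool was RMA. Its version and any further step are not given in the sources at hand. RMA quantile-normalizes arrays together and compresses values near the floor. Column medians were 5.12 to 5.14, so no scaling was added. Of the sample columns 0 were left unused. Depth has no meaning for arrays, and their number limits the precision.

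The 50 control probe sets were set apart. Differences were taken with Python 3.11.15, pandas 2.3.3 and numpy 2.4.6, and plotted with matplotlib 3.10.9. No test was made, since each side has 1 array. GEO's platform annotation lists 3864 probe sets, 70 of them with several genes, and 3784 with 1 gene were found in RefSeq's TAIR10.1 table of genes, used for names only. Probe sets that annotation does not list are unnamed here. A gene with several probe sets enters by the one with the highest mean over the 4 arrays other than 240 min hypoxia.

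The genes named are the 15 furthest above and the 15 furthest below air, for each list the 3 most different members, and all measured low-oxygen, fermentation and starvation genes, 89 in all. Others were chosen after their values were seen. The members and lists were chosen with earlier results of these data known, and genes were added to the ribosomal, respiratory and tropinone reductase-like lists after values had been seen. Alternatives were another level, another size of difference, the other air array or the mean of both, quantile normalization again, median centring, the mean of a gene's probe sets, and leaving out probe sets beside raised dim ones. Leaving out probe sets with a letter before their suffix was added after seeing the data.

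The level decides who enters. The 135 probe sets whose highest value on the other 4 arrays was within 0.1 above 6 had a median difference of −0.05 and a range of −1.36 to 2.00, and the 150 within 0.1 below it −0.05 and −1.20 to 3.23. Through the 240 min air array alone entered 42, of which 3 were lower and 0 higher by 1 or more.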

Additional observations from a re-analysis of the deposited data

Results flagged for a closer look

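Of the 89 genes taken by the naming rule, 10 differed from air by 1 or more in opposite directions at 240 and at 60 min, each time with 1 array a side. Whether the 2 times differ was not tested. Those below 240 min air at 240 min and above 0 min air at 60 min were AT4G33560 (−3.99 and 1.18), AT1G03220 (−3.68 and 2.103), AT4G27450 (−3.56 and 2.82), AT3G15450 (−2.73 and 2.46) and AT2G20670 (−2.19 and 1.11). The same held for AT1G03610 (−1.88 and 1.27), AT1G54740 (−1.65 and 1.93) and PDC2 (−1.48 and 2.07). PRXR1 was at 1.02 at 240 min and −1.01 at 60 min, and AT3G09440 at 1.22 and −2.27.

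Outside the probe sets compared, 4 mouse control probe sets read higher in 240 min hypoxia than in 240 min air, and higher than on any other array. The differences were 1.33 for IL4, 0.91 for IL10, 0.82 for IL2 and 0.27 for FAS. Other controls did the same, among them 25S rRNA (1.41), 5S rRNA (0.99) and TrpnX-5 (0.74). Of the dim probe sets, 303 were higher by 1 or more on the same array.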

How the results depend on the processing

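The count of higher probe sets, 104, was 52 with a level of 7, 46 with a difference of 1.5 and 56 without probe sets beside raised dim ones. The count of lower ones, 158, was 62 with a difference of 1.5, and 90 without probe sets that carry a letter before their suffix, a setting chosen after seeing the data. The other counts stayed within 1.5 times, at 71 to 113 higher and 133 to 155 lower. The smaller counts follow in part from fewer probe sets or a larger difference asked for. The low-oxygen median of −3.56 was −2.88 against the mean of both air arrays and −2.20 against 0 min air. Without lettered probe sets the medians were −0.57 for Calvin cycle genes, 0.022 for dehydrins and 0.39 for histones, and the cause was not tested. AT3G09440 changed sign, to −0.047, against 0 min air, as did AT2G36580, to 0.35, and GI, to 0.14. Of the recomputed differences of the 89 named genes, 537 moved by less than the SD of the air pair. Besides that of AT3G09440, 45 moved by more, most of them against 0 min air (34) or the mean of both air arrays (9). The other 2 were of AT4G24780, at −1.88 over both its probe sets and −0.62 without the lettered one. The 537 does not measure stability, because several settings could move few genes or none. Median centring shifted every gene by the same 0.04. Averaging or leaving out probe sets can change the value only of genes with several. With 0 min air as the reference, 54 of the 89 stayed within that SD, and 80 did with both air arrays averaged. No paired analysis was possible because each treatment and time has 1 array. With 1 array a side, no difference above separates treatment from sample.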

Other observations

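Further gene groups lay near air or slightly below it, where 523 of all 936 genes lay below 0 and 4.38% were lower by 1 or more. Of 11 UDP-glycosyltransferase genes, which attach sugars to small molecules, 10 lay below 0 and 0 were lower by 1 or more, with a median of −0.17. AT3G46690 was at 5.31 in 240 min hypoxia against 6.098 in 240 min air (−0.78) and AT2G30150 at −0.68. In the cluster of neighbouring tropinone reductase-like genes, 4 of 5 lay below 0, with AT2G29340 at 5.94 in hypoxia against 7.34 in air (−1.41) and a median of −0.24. The 11 vacuolar proton ATPase subunit genes had a median of 0.05, with AVA-P1 at −0.61, VHA-A1 at −0.47 and AT4G26710 at 0.46. The 14 redox and detoxification genes were split 7 and 7, with a median of −0.02, MSRB6 at −0.82 and the glutathione reductase gene GR at −0.67. Of 6 histone genes 3 lay above 0, the H3 genes AT5G65360 and AT1G09200 at 0.55 and 0.39, while the linker histone gene AT2G30620 was at −0.51.

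Genes in this paragraph were chosen after their values were seen. PORB, a light-dependent enzyme of chlorophyll synthesis, stayed under the level of 6 on the other 4 arrays and read 7.87 in hypoxia against 5.76 in air (2.11), with no raised dim neighbours. AT1G70000, a MYB-related factor gene, read 5.93 in hypoxia against 7.32 in air (−1.39), and AT2G47560, a RING finger gene, 7.65 in hypoxia against 8.99 in air (−1.35). ARL, an ARGOS-like gene of cell expansion, was at 5.70 in hypoxia against 6.74 in air (−1.04). AT2G01820, a leucine-rich repeat receptor kinase gene, was at 9.11 in hypoxia against 7.99 in air (1.13) and AT4G00780, of the TRAF-like family, at 7.76 in hypoxia against 6.56 in air (1.19).

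By level, the balance of the 2549 probe sets shifted. Of 956 whose highest value on the other 4 arrays was 6 to 7, 52 were higher and 22 lower by 1 or more. Of 562 at 7 to 8 these were 17 and 33, of 666 at 8 to 10 they were 20 and 56, and of 365 above 10 they were 15 and 47.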
